A study of Mus musculus with 6 samples.

Results

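The 10 genes Tnf, Tnfaip3, Tnfaip2, Nfkbia, Nfkbiz, Nfkb1, Nfkb2, Relb, Birc3 and Icam1 encode TNF, part of the machinery by which NF-kB regulates itself, and products of NF-kB targets. They were taken by symbol from the 28752 genes listed in an RNA sequencing table of mouse intestinal crypt stem cells, and all 10 were listed and passed the filter on low counts. Per the study's methods, Lgr5-positive ISCs (intestinal stem cells) of Lgr5-GFP mice had been grown as organoids. All 6 samples were under hypoxia/reoxygenation (H/R), with 72 h of adenovirus infection by the labels (the study's methods give another interval) and 4 h in 2% O2, 5% CO2 and 93% N2. In the vector group (n = 3, genotype WT) the adenovirus carried the vector alone, and in the other group (n = 3) it overexpressed circEZH2_005, a circular RNA from the Ezh2 locus. The study's methods do not say how WT relates to the Lgr5-GFP mice. Samples in normal oxygen were not analysed here, so every value is a level under H/R. Nothing in the labels says whether the 3 samples of a group came from separate mice, and p-values then measure the spread between these samples, which may be technical.

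TNF is a cytokine whose receptors lead, through adaptor proteins and ubiquitin ligases, to the IkB kinase complex. The kinase marks the inhibitor IkB-alpha for degradation, NF-kB dimers enter the nucleus, and among the genes they switch on are inhibitors of the same pathway, which makes a negative feedback loop. In the gut epithelium this pathway is known for balancing defence, survival and cell death.

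The promoters of the negative-feedback genes Nfkbia and Tnfaip3 and of the genes with the most negative and most positive log2 fold change, Tnf and Icam1, are shown with their kB-type motifs, the letters NF-kB dimers can bind. Each runs 5' to 3' on the gene's strand from 250 bases before the RefSeq start site to 50 after it (GRCm38.p6), at chr12:55492598-55492897 (minus strand), chr10:19015361-19015660 (minus strand), chr17:35201958-35202257 (minus strand) and chr9:21015690-21015989 (plus strand). Capitals mark every match of GGGNNNNNCC on either strand, with overlapping matches run together.
Nfkbia: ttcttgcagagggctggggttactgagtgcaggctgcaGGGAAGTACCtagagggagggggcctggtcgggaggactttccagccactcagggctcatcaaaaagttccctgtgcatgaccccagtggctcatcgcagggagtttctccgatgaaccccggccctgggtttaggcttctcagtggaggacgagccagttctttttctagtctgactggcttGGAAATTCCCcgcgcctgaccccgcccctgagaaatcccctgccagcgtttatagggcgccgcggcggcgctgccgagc
Tnfaip3: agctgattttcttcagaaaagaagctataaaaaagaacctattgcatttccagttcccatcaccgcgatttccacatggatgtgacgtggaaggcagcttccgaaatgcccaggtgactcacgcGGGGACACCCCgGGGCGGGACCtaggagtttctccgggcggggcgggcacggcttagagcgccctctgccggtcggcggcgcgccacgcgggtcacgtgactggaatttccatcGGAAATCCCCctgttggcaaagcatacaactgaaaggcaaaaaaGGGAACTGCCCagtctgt
Tnf: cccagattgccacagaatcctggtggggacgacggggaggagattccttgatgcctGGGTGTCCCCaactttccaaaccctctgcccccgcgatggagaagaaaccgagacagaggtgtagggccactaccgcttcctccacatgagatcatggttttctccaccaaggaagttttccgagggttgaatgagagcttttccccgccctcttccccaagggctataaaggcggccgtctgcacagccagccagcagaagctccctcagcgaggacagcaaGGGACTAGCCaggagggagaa
Icam1: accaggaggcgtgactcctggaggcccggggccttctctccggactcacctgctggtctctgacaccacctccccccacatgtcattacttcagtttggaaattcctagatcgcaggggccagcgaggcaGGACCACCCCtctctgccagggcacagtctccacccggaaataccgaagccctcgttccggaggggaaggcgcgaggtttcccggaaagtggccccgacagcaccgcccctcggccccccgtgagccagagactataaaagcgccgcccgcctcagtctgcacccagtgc

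RefSeq promoters were given for 7 of the 10 genes, in 10 entries, since Tnfaip3 and Nfkb2 have several start sites. Those of Nfkbiz, Nfkb1 and Relb were not used here. All 10 entries held the kB-type motif, as did 50.8% of all 32851 mouse promoters of the same length. A stricter form is the kB consensus, with a purine after the G run and pyrimidines before the final C pair. It was in 6 of the 10 entries, from 4 genes (Nfkbia, Tnfaip3, Nfkb2 and Tnfaip2), against 8.46% of all promoters. Of these entries 2, both of Nfkb2, overlap and share a site, so the entries are not separate observations. In Nfkbia it was GGGAATTTCC on the minus strand at -29 from the start site. The first Tnfaip3 promoter held it in 2 places, as GGGGATTTCC on the minus strand at -12 and as GGGACACCCC at -125, where both strands match, and the second promoter in none. The first Nfkb2 promoter had GGGAATTCCC at -39, the same letters on both strands, with an overlapping match 1 base on, and GGGGCTTTCC at -11. Nfkb2 promoter 2 had GGGACATTCC on the minus strand at -236 and GGGACTTTCC at 11. Nfkb2 promoter 3 overlaps promoter 2, and its only consensus match, GGGACTTTCC at -225, is that same site. In Tnfaip2 the consensus match was GGGGCCCTCC on the minus strand at -24. For Tnf, Icam1 and Birc3 the consensus letters were not in these windows, which says nothing of sites elsewhere or of sites with other letters. Stretches with a shorter G run, such as ggaaattcc in the Icam1 window and ggactttcc in that of Nfkbia, were not searched for or marked. A match is a description of letters, and binding was not measured.

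The counts summed to between 71506487 and 79919893 per sample, so that for most of these genes the spread between samples, more than depth, limits the precision. Counts were scaled to CPM (counts relative to library size, with edgeR's TMM factors), and 18348 genes were tested. In vector replicate 2, log2 CPM across genes correlated with that of the circEZH2_005 samples at 0.983 to 0.988. The other vector samples correlated with them at 0.973 to 0.982. Results that turn on vector replicate 2 are given without it as well. Leaving out this control, the most like the circEZH2_005 samples, raised the genes with an adjusted p under 0.05 by edgeR from 674 to 1432. Leaving out vector replicate 1 or 3 lowered them to 28 and 33, so a gain without vector replicate 2 is no separate support. The defining epithelial markers (6 of 6) and crypt stem cell markers (5 of 5) were detected in every sample. Lgr5 itself fell, from 16.1, 12.1 and 18.3 CPM with vector to 8.55, 9.10 and 7.70 CPM with circEZH2_005 (adjusted p = 0.0434 by edgeR). Ezh2, the host gene, had a log2 fold change of -0.13 (SE 0.10, adjusted p = 0.511 by edgeR), and the circular RNA itself is not in the table, which counts genes in poly(A)-selected RNA.

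With edgeR (quasi-likelihood test, p-values adjusted by Benjamini-Hochberg), 0 of the 10 genes had an adjusted p under 0.05, where 3.67% of all genes tested had. At an unadjusted p under 0.05 the count was 3 of 10 (Tnf and Tnfaip3 lower, Icam1 higher with circEZH2_005), where 23.7% of all genes lay. DESeq2 called 2 of the 10, Tnf and Icam1, against 13.9% of the genes for which it gave an adjusted p. A fold change over 2 or under 0.5 with an unadjusted p under 0.05 was met by 1 gene, Tnf, against 7.56% of all genes. The groups did not overlap in CPM for 2 genes, Tnf and Icam1, while 30.6% of all genes tested had no overlap. In the FPKM values as deposited (fragments per length and library size) there was no overlap for 4, these and Tnfaip3 and Nfkb2, both lower, against 30.9% of all genes. Under each rule the count differed from the background share of 10 genes by fewer than 2 genes. Of the 10 log2 fold changes 6 were positive and 4 negative, with a median of 0.06, and the median over all genes tested was 0.00.

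**Figure D1:**
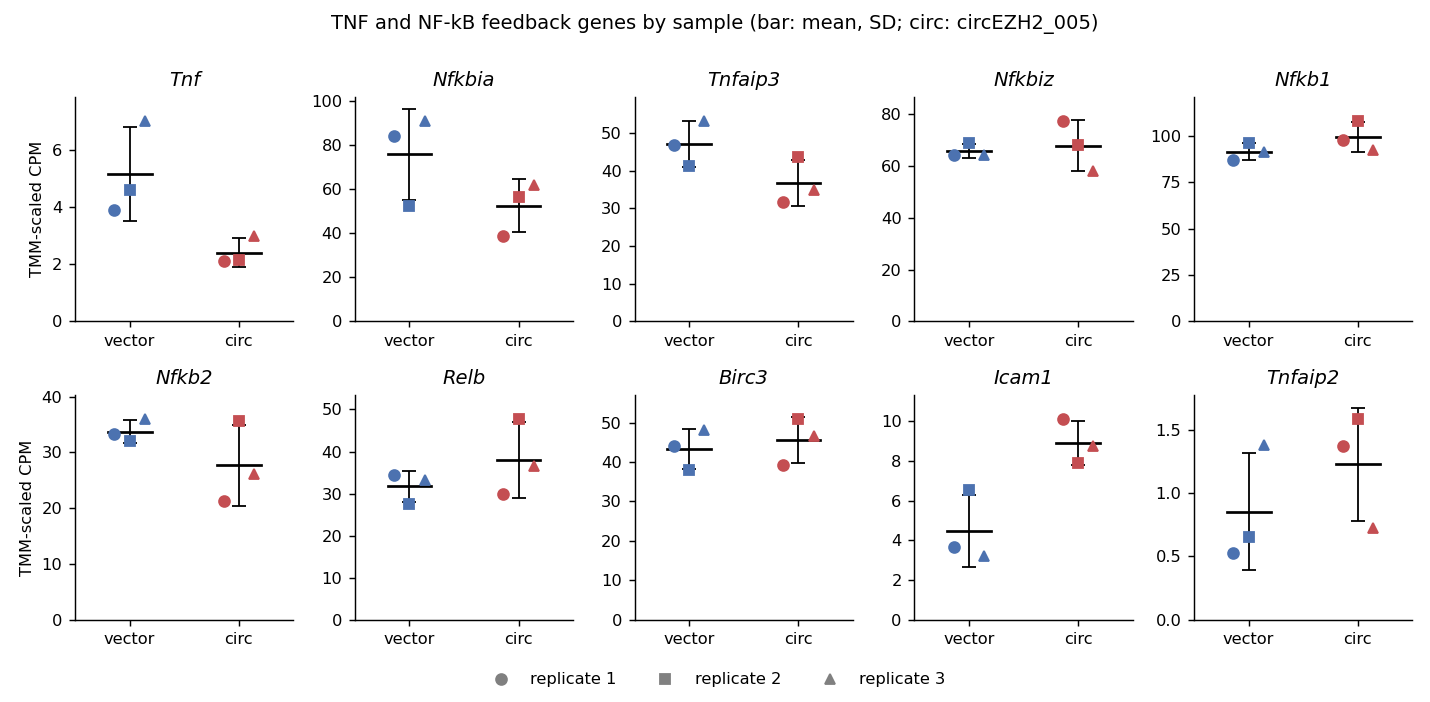
TMM-scaled CPM (y axis, from 0) of each of the 10 genes in the vector and circEZH2_005 (circ) samples, with points for replicates 1 to 3, shaped by replicate number, and black bars for the mean and SD (n = 3). The groups are apart for Tnf, lower with circEZH2_005, and for Icam1, higher, and overlap for the other 8 genes.

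Tnf (ENSMUSG00000024401, chromosome 17, 35199381 to 35202007, minus strand, mm10) encodes the ligand. Its counts were 281, 344 and 549 in vector replicates 1 to 3 and 167, 159 and 214 in circEZH2_005 replicates 1 to 3. On the CPM scale this was 3.88, 4.60 and 7.01 against 2.10, 2.14 and 2.99. All circEZH2_005 samples lay below all vector samples, and vector replicate 3 was the highest of the 6. Mean levels were 5.16 ± 1.64 CPM for vector and 2.41 ± 0.50 CPM for circEZH2_005 (SD, n = 3 each). This 2.15-fold difference, a log2 fold change of -1.10 (SE 0.28, 95% interval -1.75 to -0.46), missed the threshold (adjusted p = 0.0674 by edgeR). DESeq2 gave an adjusted p of 0.00339 for it. The two-sided exact permutation test gave p = 0.1, the smallest that 3 samples against 3 allow.

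Among the inhibitors that NF-kB induces, Nfkbia (ENSMUSG00000021025, chromosome 12, 55489410 to 55492647, minus strand) encodes IkB-alpha, which holds NF-kB in the cytoplasm. Its CPM was 84.2, 52.4 and 91.2 in vector replicates 1 to 3 and 38.9, 56.7 and 61.9 in circEZH2_005 replicates 1 to 3. The groups overlapped through vector replicate 2, which was below circEZH2_005 replicates 2 and 3. Its log2 fold change was -0.53 (SE 0.24, 95% interval -1.09 to 0.02, adjusted p = 0.226 by edgeR), and without vector replicate 2 it was -0.74, still short of the threshold.

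Tnfaip3 (ENSMUSG00000019850, chromosome 10, 19000910 to 19015410, minus strand) encodes a ubiquitin-editing enzyme that ends signalling from TNF receptors. Its CPM was 46.7, 41.1 and 53.2 with vector and 31.6, 43.6 and 34.9 with circEZH2_005, in replicate order. Of the circEZH2_005 samples 1, replicate 2, lay above the lowest vector sample. The log2 fold change was -0.36 (SE 0.14, 95% interval -0.69 to -0.02, adjusted p = 0.185 by edgeR).

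Nfkbiz (ENSMUSG00000035356, chromosome 16, 55811375 to 55838899, minus strand) encodes IkB-zeta, a nuclear cofactor that acts on a subset of NF-kB targets. Its CPM was 64.3, 68.9 and 64.3 with vector and 77.4, 68.0 and 58.1 with circEZH2_005. The vector samples lay within the range of the circEZH2_005 samples. The 95% interval of its log2 fold change, -0.22 to 0.30, leaves out a rise of more than 1.23-fold and a fall of more than 1.16-fold.

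Birc3 (ENSMUSG00000032000, chromosome 9, 7848699 to 7873170, minus strand) encodes a ubiquitin ligase of the TNF receptor complex that blocks cell death. With vector it was at 44.2, 38.0 and 48.0 CPM and with circEZH2_005 at 39.3, 50.9 and 46.5 CPM, and the ranges overlapped almost wholly. The log2 fold change of 0.07 had a 95% interval of -0.22 to 0.36 (adjusted p = 0.788 by edgeR), and its sign changed with the processing.

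Nfkb1, Nfkb2 and Relb encode NF-kB subunits or their precursors. Nfkb1 (ENSMUSG00000028163, chromosome 3, 135584655 to 135691546, minus strand) encodes the precursor of the classical subunit, and its CPM was 87.0, 96.0 and 91.2 with vector and 97.4, 108 and 92.3 with circEZH2_005. This was the smallest spread relative to the mean among the 10 genes in the circEZH2_005 group, with a coefficient of variation of 8.09%, and the 95% interval of the log2 fold change was -0.09 to 0.32, at most a 1.25-fold rise.

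Nfkb2 (ENSMUSG00000025225, chromosome 19, 46304320 to 46312385, plus strand) encodes the precursor of the non-canonical pathway, which also holds RelB back until it is processed. It was at 33.2, 32.02 and 36.0 CPM with vector and at 21.3, 35.6 and 26.2 CPM with circEZH2_005. The vector samples were close together (coefficient of variation 6.01%), the circEZH2_005 samples were not (26.2%), and circEZH2_005 replicate 2 lay among the vector samples. On the log2 scale the difference was -0.28 (SE 0.18, 95% interval -0.70 to 0.13, adjusted p = 0.379 by edgeR).

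Relb (ENSMUSG00000002983, chromosome 7, 19606217 to 19629438, minus strand), whose protein pairs with the processed Nfkb2 product, was at 34.4, 27.5 and 33.2 CPM with vector and 29.8, 47.7 and 36.6 CPM with circEZH2_005. The highest and the second highest values were circEZH2_005 samples, and the third of that group lay within the vector range. The log2 fold change was 0.26 (SE 0.17, 95% interval -0.14 to 0.67, adjusted p = 0.411 by edgeR). Nfkb2 and Relb thus had mean differences of opposite sign, and neither passed the test.

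Of the remaining targets, Icam1 (ENSMUSG00000037405, chromosome 9, 21015985 to 21028817, plus strand) encodes an adhesion molecule that leukocytes bind. Its counts were 266, 488 and 253 in vector replicates 1 to 3 and 805, 587 and 628 in circEZH2_005 replicates 1 to 3, or 3.67, 6.53 and 3.23 CPM against 10.1, 7.89 and 8.76 CPM. The lowest circEZH2_005 value exceeded the highest vector value, and vector replicate 2 stood nearest to them. Mean levels were 4.48 ± 1.79 CPM for vector and 8.92 ± 1.13 CPM for circEZH2_005 (SD, n = 3 each). The difference was 1.99-fold, or 0.99 on the log2 scale (SE 0.28, 95% interval 0.35 to 1.64, adjusted p = 0.0852 by edgeR). DESeq2 gave an adjusted p of 0.00536. Without vector replicate 2 it was 1.37 on the log2 scale (adjusted p = 0.0077 by edgeR). Icam1 was then the 1 called gene of the 10, where 7.48% of the 19145 genes tested were called. With any other sample left out in turn, the log2 fold change was 0.80 to 1.08, with adjusted p-values of 0.154 to 0.241 by edgeR. The two-sided exact permutation p was 0.1, the smallest possible.

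Tnfaip2 (ENSMUSG00000021281, chromosome 12, 111442469 to 111455018, plus strand), a TNF-induced gene known for a role in membrane protrusions, had few counts, 38, 49 and 108 with vector and 109, 118 and 52 with circEZH2_005. The ranges overlapped widely. Its log2 fold change of 0.52 had the widest interval of the 10, -0.56 to 1.61 (adjusted p = 0.556 by edgeR), so that neither a 3.05-fold rise nor a 1.48-fold fall lay outside it.

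Genes on the other strand overlap Icam1, Tnfaip2 and Nfkb2 and a transcript on the same strand overlaps Nfkb1 in GENCODE M21, and since no source says whether counting used strand, reads of these partners cannot be told apart from theirs.

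**Figure D2:**
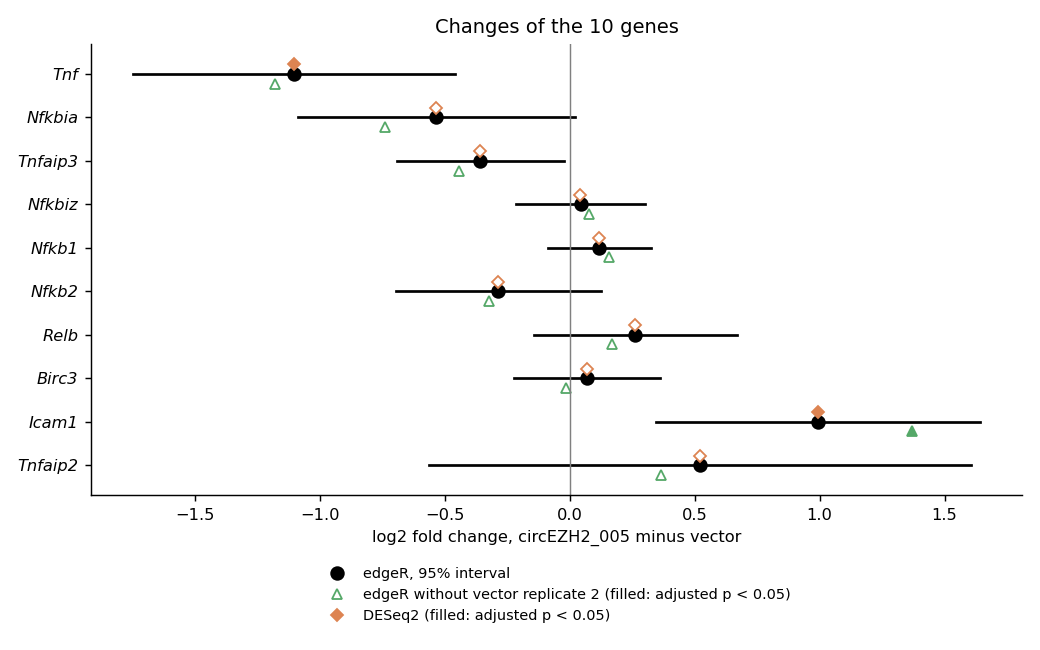
Log2 fold change of circEZH2_005 minus vector (x axis) for the 10 genes, with black points and lines for edgeR and its 95% interval, orange diamonds for DESeq2 and green triangles for edgeR without vector replicate 2, filled where the adjusted p is under 0.05. The diamonds of Tnf and Icam1 and the triangle of Icam1 are filled.

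Samples ranked differently for different members. In the vector group, replicate 3 held the highest value of 6 genes (Tnf, Tnfaip3, Tnfaip2, Nfkbia, Nfkb2 and Birc3), and replicate 2 the lowest value of 5 (Tnfaip3, Nfkbia, Nfkb2, Relb and Birc3). With circEZH2_005, replicate 1 was lowest for 6 (Tnf, Tnfaip3, Nfkbia, Nfkb2, Relb and Birc3) and yet highest for Nfkbiz and Icam1. Replicate 2 of that group was highest for 6, among them Nfkb2 and Relb.

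Levels were compared between genes per length, as FPKM. Nfkbia was the highest of the 10, with a mean of 35.9 FPKM over the 6 samples, and its range of 22.5 to 52.5 FPKM lay above that of Nfkbiz, the next, at 12.0 FPKM. Relb at 7.997, Birc3 at 7.94, Nfkb1 at 7.09, Nfkb2 at 6.01 and Tnfaip3 at 5.21 FPKM followed, and from Nfkbiz to Tnfaip3 each range overlapped the next. Tnf at 2.09 FPKM lay below the range of Tnfaip3, Icam1 at 1.37 FPKM overlapped it, and Tnfaip2 at 0.184 FPKM lay below both. The order of the means of Tnf and Icam1 turned between the groups, from 2.92 ± 0.94 against 0.949 ± 0.392 FPKM with vector to 1.27 ± 0.24 against 1.79 ± 0.34 FPKM with circEZH2_005 (SD, n = 3 each). With circEZH2_005 their ranges overlapped, at 1.083 to 1.542 FPKM for Tnf and 1.506 to 2.161 FPKM for Icam1, and this pair was chosen after its values were seen. The means of Birc3 and Relb also changed places, from 8.002 and 7.53 FPKM with vector to 7.88 and 8.46 FPKM with circEZH2_005, but their ranges overlapped in both groups.

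**Figure D3:**
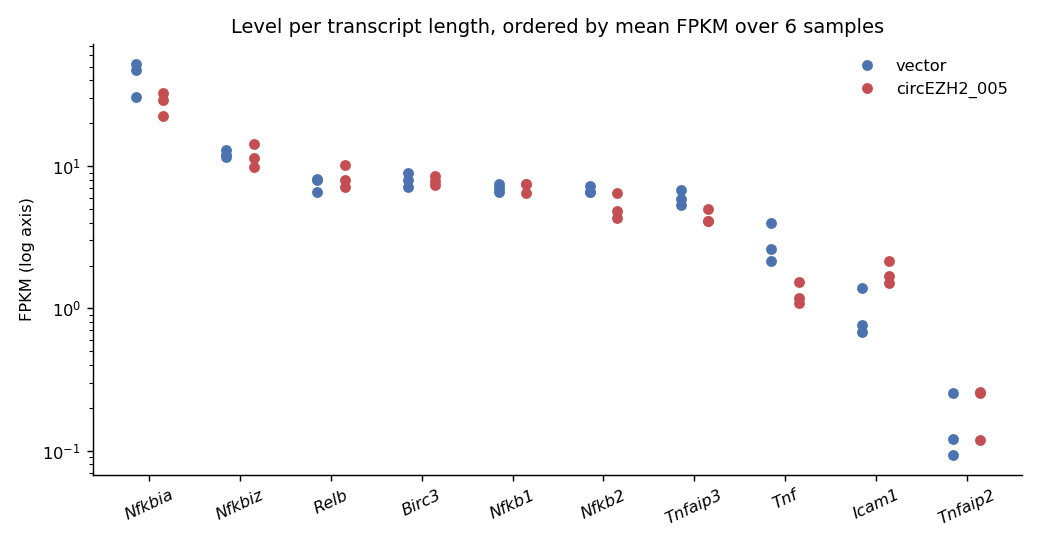
FPKM (y axis, log scale) of the 10 genes, ordered by their mean over the 6 samples, with blue points for vector and red points for circEZH2_005 samples. Nfkbia stands above and Tnfaip2 below the other genes, and Tnf lies above Icam1 in the vector samples and below it in the mean of the circEZH2_005 samples.

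The wider pathway was followed in 88 further genes, of which 86 were listed (Sele and Tnfaip6 were not) and 81 tested. Lta, Tnfsf11, Il6, Ccl2 and Cxcl5 had too few counts. Of the 81, 4 rose and 2 fell with an adjusted p under 0.05 by edgeR, where 3.67% of all genes passed. Their median log2 fold change was 0.29, beside 0.00 over all genes tested, with 57 positive and 24 negative, and in 37 genes all circEZH2_005 samples lay above and in 7 below all vector samples, where 16.4% and 14.2% of all genes tested did so. The called counts changed with the sample left out. Without vector replicate 1, vector replicate 3, circEZH2_005 replicate 2 or circEZH2_005 replicate 3, between 0 and 2 rose and between 0 and 1 fell. Calls over all genes tested were fewer as well, at 28, 33, 68 and 169 in these fits beside 674 with all samples. Without circEZH2_005 replicate 1 the counts were 5 and 2, beside 681 of 18990 genes called. Without vector replicate 2 the counts were 13 and 3, beside 7.48% of all genes called in that fit. DESeq2 called 23 higher and 3 lower, beside 13.9% of all genes with an adjusted p.

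Of the 28 receptors, adaptors and kinases, 0 passed the adjustment by edgeR and 13 had an unadjusted p under 0.05 (12 higher, 1 lower), where 14% of all genes tested were higher and 9.72% lower by that rule, with a median log2 fold change of 0.24. The largest value belonged to the receptor Cd40, with 2.19 and an interval from -0.36 to 4.73, from 0.152, 0.415 and 0 CPM with vector to 1.25, 1.06 and 0.279 CPM with circEZH2_005, and without vector replicate 2 it was 3.50 (adjusted p = 0.146 by edgeR). The smallest value belonged to the adaptor Tab3, with -0.23 (adjusted p = 0.175 by edgeR). The receptors of TNF itself are given here although they were chosen after their values were seen. Tnfrsf1a was at 114, 102 and 114 CPM with vector and 118, 166 and 146 CPM with circEZH2_005, and Tnfrsf1b at 11.6, 17.0 and 12.1 CPM against 30.8, 25.5 and 19.7 CPM. In both, all circEZH2_005 samples were the higher ones, and neither passed the adjustment (adjusted p = 0.132 and 0.0573 by edgeR). Without vector replicate 2 the adjusted p of Tnfrsf1b was 0.0188 by edgeR, in a fit that called 7.48% of all genes beside 3.67% with all samples.

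The 4 other subunits and nuclear IkB proteins all had positive log2 fold changes, from 0.31 for the cofactor Bcl3 to 0.45 for Nfkbid, a nuclear IkB protein, and 0 were called by edgeR. At an unadjusted p under 0.05 there was 1, Rela, the main activating subunit, at 26.1, 28.7 and 30.0 CPM with vector and 35.3, 35.8 and 35.4 CPM with circEZH2_005 (log2 fold change 0.33, SE 0.08, adjusted p = 0.0695 by edgeR). Its 2 groups did not overlap.

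Among 16 other inhibitors and deubiquitinases, 1 rose by the adjusted p, Tnfaip8l2, which restrains immune receptor signalling. It went from 1.24, 1.78 and 1.61 CPM to 4.65, 7.94 and 4.76 CPM (log2 fold change 1.904, SE 0.28, adjusted p = 0.0219 by edgeR). Irak3, an inhibitor of Toll-like receptor signalling, had the smallest value, -0.31 (adjusted p = 0.708 by edgeR). The median was 0.30, and 8 of the 16 had an unadjusted p under 0.05, all higher, beside the 14% of all genes. Among them, and chosen after their values were seen, were the inhibitors Nfkbib (0.54) and Nfkbie (0.83), relatives of Nfkbia, and Tnip1 (0.62), a partner of the Tnfaip3 protein, with adjusted p-values of 0.107, 0.0692 and 0.0545 by edgeR. Nfkbia and Tnfaip3 themselves had negative log2 fold changes, as given above, and the difference between these genes was not tested.

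Of 15 ligands of the TNF superfamily and interleukins 12 were tested, 1 rose and 1 fell, with a median of 0.23. Tnfsf13b, a survival factor for B cells, went from 2.68, 4.31 and 3.01 CPM to 13.1, 15.03 and 13.2 CPM (log2 fold change 2.05, SE 0.21, adjusted p = 0.00844 by edgeR). Il18, an interleukin of the epithelium activated by inflammasomes, went from 96.7, 53.5 and 80.9 CPM to 16.3, 27.4 and 17.6 CPM (log2 fold change -1.91, SE 0.27, adjusted p = 0.0204 by edgeR). Il1a had the largest fitted value, but with counts of 0, 0 and 6 against 32, 21 and 14 it depends on the prior count (adjusted p = 0.135 by edgeR).

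Of 25 other known NF-kB targets 21 were tested, 2 rose and 1 fell, with a median of 0.23. Irf1, a transcription factor of the interferon response, was at 180, 278 and 150 CPM with vector and 363, 494 and 445 CPM with circEZH2_005 (log2 fold change 1.10, SE 0.23, adjusted p = 0.0472 by edgeR). Pim1, a survival kinase, was at 48.4, 56.2 and 47.3 CPM against 72.2, 91.6 and 89.6 CPM (log2 fold change 0.74, SE 0.12, adjusted p = 0.0263 by edgeR). Lcn2, an antimicrobial iron-sequestering protein, fell by 5.36 on the log2 scale (adjusted p = 0.0214 by edgeR), with vector replicate 2 at 6.29 CPM against 32.7 and 31.2 CPM in the other vector samples. The chemokine Cxcl10 had the largest positive value, 2.04, without passing (adjusted p = 0.16 by edgeR), and had 2.86 without vector replicate 2 (adjusted p = 0.0814). Of the genes named in these lists, Tnfsf13b, Il18, Il1a, Irf1, Pim1, Cxcl10, Bcl3, Irak3, Nfkbib and Tnip1 overlap genes on the other strand.

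**Figure D4:**
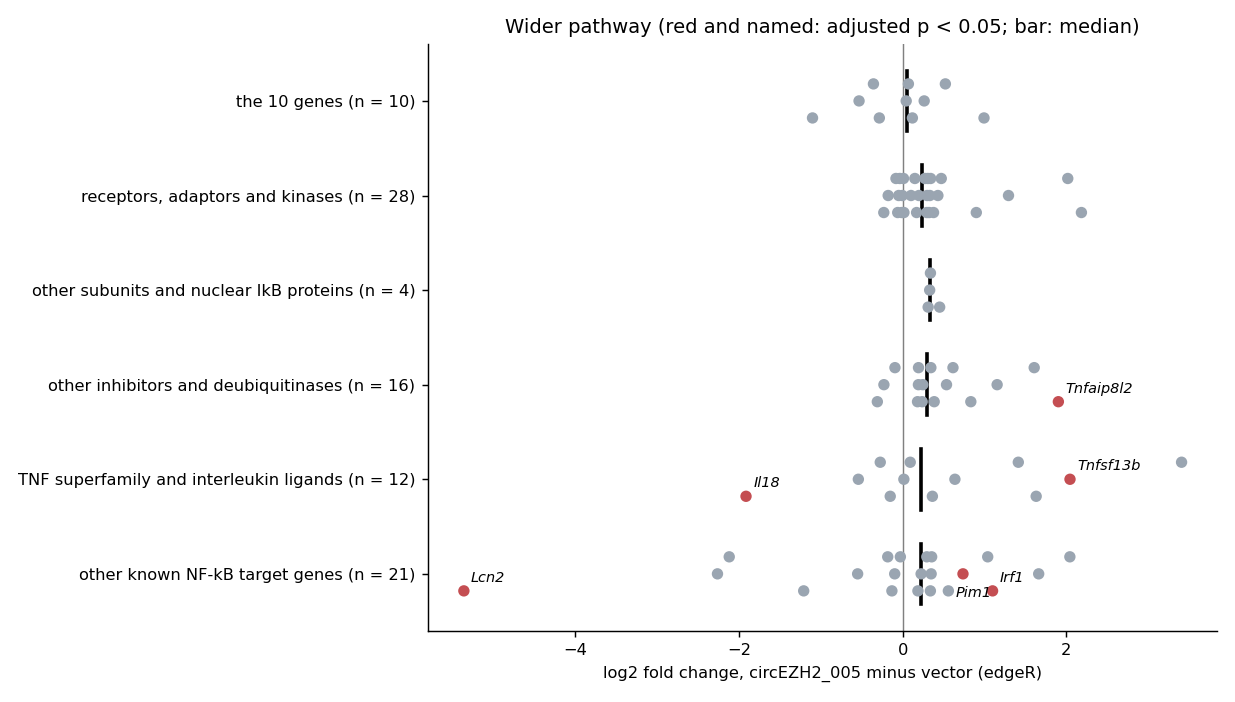
Log2 fold change of circEZH2_005 minus vector by edgeR (x axis) for each tested gene, by list (rows, number tested in brackets), with black bars for the median of the list and genes with an adjusted p under 0.05 in red with their names. None of the 10 feedback genes is red, 4 of the wider genes are red to the right and 2 to the left.

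Among markers of other cell types, the leukocyte and T cell sums lay apart between the groups. The sums for B and plasma cells, for macrophages and monocytes, and for fibroblasts and endothelium overlapped. All 8 leukocyte markers had positive log2 fold changes with an unadjusted p under 0.05 by edgeR, where 14% of all genes tested were higher by that rule. Of the 8, 0 passed the adjustment by edgeR, and their median was 1.64. These markers ranked the samples alike within each group and are not separate observations. Their summed level was 94.7 to 274 CPM with vector, where replicate 2 was highest, and 345 to 625 CPM with circEZH2_005, with 0 of the 8 at 0 in any sample. The 6 T cell markers summed to 32.8 to 109 CPM and 165 to 268 CPM, also without overlap, and the 5 B and plasma cell markers to 7.54 to 15 CPM and 14.4 to 64.9 CPM. The 6 macrophage and monocyte markers overlapped between the groups at 38.9 to 47.1 CPM and 43.0 to 61.0 CPM. The leukocyte sum was highest in replicate 2 of the vector group and in replicate 1 of the circEZH2_005 group. Of the 10 genes, Nfkbiz, Nfkb1 and Icam1 were highest in that vector sample, and Nfkbiz and Icam1 in that circEZH2_005 sample. The same vector sample was lowest in its group for 5 of the 10, and the same circEZH2_005 sample for 6. Per the study's methods, Lgr5-GFP-positive cells were sorted by flow cytometry before they were grown as organoids.

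Epithelial markers summed to 6813 to 7140 CPM with vector and 8834 to 11859 CPM with circEZH2_005. Krt8 and Krt20 were called, with log2 fold changes of 0.57 and 1.18. Vil1 had 0.57 and Epcam, Cdh1 and Krt18 had 0.16, 0.19 and 0.19, without passing. The crypt stem cell markers summed to 1623 to 2480 CPM with vector and 1130 to 1696 CPM with circEZH2_005. Olfm4 made up most of the latter sum. Of the 5 stem cell markers Lgr5 and Smoc2 fell (adjusted p = 0.0434 and 0.0203 by edgeR), while Ascl2 and Olfm4 had log2 fold changes of -0.68 and -0.42 and Axin2 of 0.31 without passing. The 7 fibroblast and endothelial markers summed to 4.18 to 7.79 CPM and 4.00 to 13.5 CPM, and of these Cdh5 and Kdr were at 0 in a sample. Pecam1, an adhesion molecule of endothelium that leukocytes also carry, was the 1 called gene of that list, higher by 1.93 on the log2 scale (adjusted p = 0.0377 by edgeR). In bulk RNA a change in the number of cells of a type and a change in the RNA per cell cannot be told apart, and the part of these cell types in the levels of the 10 genes was not tested.

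**Figure D5:**
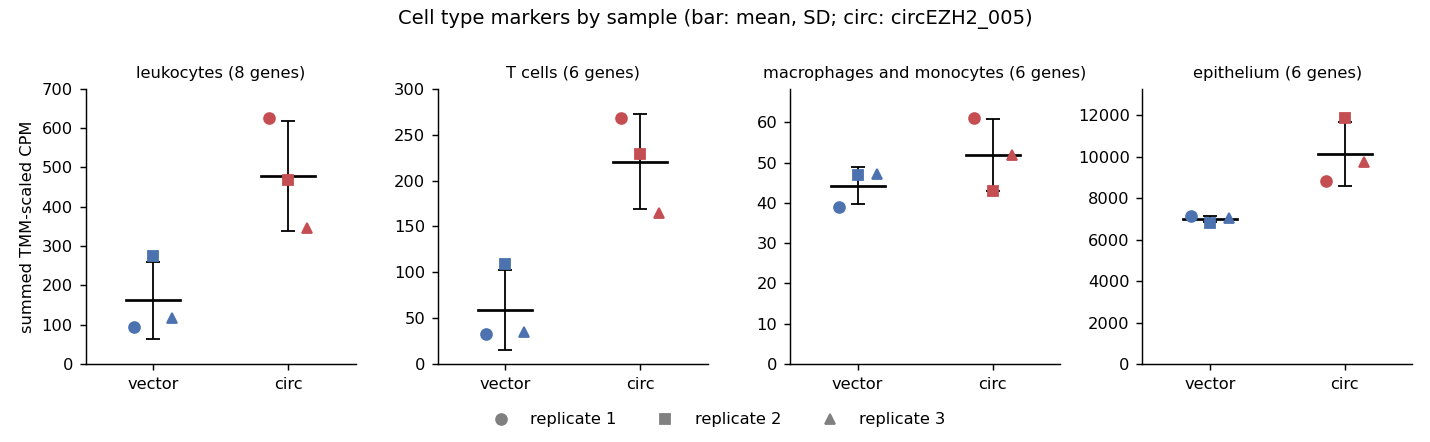
Summed TMM-scaled CPM (y axes, from 0) of markers of leukocytes, T cells, macrophages and monocytes, and epithelium in the vector and circEZH2_005 (circ) samples, with points by replicate and black bars for the mean and SD (n = 3). Leukocyte, T cell and epithelial sums are apart between the groups, and the macrophage and monocyte sums overlap.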

How the data were processed

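RNA sequencing was measured in 6 samples, grouped by the sample labels into vector and circEZH2_005 (n = 3 each); columns of the deposited table named as negative control were taken as vector, the only control group. Per the labels, the submitters' processing notes name cutadapt 1.9, HISAT2 2.0.4, StringTie 1.3.4d, DESeq2 and the build mm10. The authors deposited raw counts per gene and FPKM values, FPKM being scaled by them for length and library size. Counts were filtered with filterByExpr, scaled with TMM and tested in edgeR 4.0.16 (R 4.3.3) by quasi-likelihood, without a covariate, with Benjamini-Hochberg adjustment over all genes. Standard errors were taken as |log2 fold change| over the root of the F statistic. Permutation tests were exact and two-sided. Alternatives were DESeq2 1.42.0, limma 3.58.1 on log2(FPKM + 1) or log2(FPKM + 0.1), median-of-ratios scaling, no filter, a replicate block and each sample left out. The edgeR fits with and without the block, DESeq2 and limma were tested on simulated data, where DESeq2 had the highest share of unchanged genes among its calls.

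The 10 genes, the wider lists and the markers were chosen with earlier results of these data known. From each list the called genes and the extremes of log2 fold change in both directions are named. Motifs were searched in RefSeq promoters on both strands.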

Additional observations from a re-analysis of the deposited data

How the results depend on the processing

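Over 12 alternative fits, 108 of 118 values of the 10 genes kept their direction and their side of the threshold. The 3 that passed it anew were Tnf and Icam1 with DESeq2 and Icam1 without vector replicate 2, and 7 changed sign: Birc3 with limma (-0.0170 with a pseudocount of 1, -0.0186 with 0.1), without circEZH2_005 replicate 2 (-0.0168) and without vector replicate 2 (-0.0163), and Nfkbiz with limma (-0.0481 and -0.0529) and without circEZH2_005 replicate 1 (-0.0636). With a sample left out, Birc3 ranged from -0.0168 to 0.1652 and Nfkbiz from -0.0636 to 0.1426. The cause was not tested. Limma's FPKM fits shift the median log2 fold change by -0.08 to -0.09.

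Called among the 10 were 1 higher and 1 lower with DESeq2, 0 and 1 with the fold rule, 0 to 1 higher and 0 lower with a sample left out, and 0 otherwise. Non-overlap held for 2 in CPM and 4 in FPKM. In the wider pathway, 4 higher and 2 lower became 23 and 3 with DESeq2, 12 and 4 with the fold rule, 2 and 2 without the filter, and 0 to 13 and 0 to 3 with a sample left out. Over all genes, 493 higher and 181 lower became 1588 and 701 with DESeq2, 1142 and 246 with the fold rule, 371 and 364 with limma on log2(FPKM + 1), 323 and 319 with a pseudocount of 0.1, 132 and 37 without the filter, and 26 to 1098 and 2 to 334 with a sample left out. The share higher was 73.1%, and 50.5% with limma.

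With the replicate block, which rests on shared replicate numbers alone, 241 and 36 of all genes, 6 and 1 of the wider pathway and 0 of the 10 were called. Same-numbered samples deviated with correlations of -0.234, -0.039 and 0.093, and the numbers were not taken to pair the samples.

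Tnfaip2, with 38 to 118 counts, is limited by depth as well as by 3 samples per group.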

Other observations

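The ratio of Icam1 to Tnf within a sample does not depend on how samples were scaled to each other. In FPKM it was 0.356, 0.532 and 0.172 in vector replicates 1 to 3 and 1.82, 1.39 and 1.1 in circEZH2_005 replicates 1 to 3. That these ranges did not overlap follows from Tnf being lower and Icam1 higher without overlap, and is no further result. The pair was chosen after its values were seen, and the ratio was not tested.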
